A study of Mus musculus with 4 samples.

Results

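ATAC-seq regions at 6 genes that encode chains of the common gamma chain cytokine receptors (Il2rb, Il2rg, Il7r, Il4ra, Il15ra and Il21r) were examined in lymph node (LN) Treg cells. In ATAC-seq a transposase tags DNA where chromatin is open, and peaks of its reads mark such regions. All called peaks that overlapped the body of a gene (GENCODE, GRCm38, the coordinates of mm10) or its flanks of 20 kb on either side were taken, and peaks that overlapped by at least 1 bp were merged. This gave 73 regions of the 272233 merged regions of the whole genome, and 35 of the 73 had a called peak in all 4 libraries. Each gene was chosen by name and not by a measured value. The windows of Il4ra and Il21r, which are neighbours on chromosome 7, shared 6 regions, which are counted once in the 73.

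Treg cells carried a Foxp3-RFP reporter and were sorted from LNs of naive, unstimulated female C57BL/6 mice of 6 to 8 weeks. WT mice were compared with Il2ramut/mut mice, which are homozygous for a point mutation in Il2ra, the gene of the IL-2 receptor alpha chain (CD25), a model of reduced IL-2 signalling in Treg cells. There were 2 libraries per genotype, from 2 mice of each and 50000 cells per library. The mutation is present in every cell of the mutant mice and not only in Treg cells, and the peak lists hold no reads in which the mutation itself could be checked. In bulk peaks, fewer cells with an open region and less opening per cell cannot be told apart.

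Interleukin-2 and interleukin-15 both signal through IL-2R beta (Il2rb) and the common gamma chain (Il2rg), and each adds its own alpha chain, encoded by Il2ra or Il15ra. The common gamma chain is also a part of the receptors for IL-4, IL-7 and IL-21, where it pairs with the chains encoded by Il4ra, Il7r and Il21r. The common gamma chain binds the kinase JAK3, the chains encoded by Il2rb, Il4ra, Il7r and Il21r bind JAK1, and the signal runs through STAT proteins, of which STAT5 is the main one downstream of IL-2 in Treg cells. Treg cells depend on IL-2 and, in mice, are known for high Il2ra and Il2rb and low Il7r.

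The lists held between 112569 and 142732 peaks per library. They give no read totals, so the total depth is unknown. A peak is described by its fold enrichment over background, taken at the summit, and by a -log10 p, and the number of reads at the summit followed from the fold enrichment in every peak (to within 0.02 reads). Summits of the median peak had 8 reads, except in Il2ramut/mut replicate 1, where they had 10. The background implied by the fold enrichments was also highest in that library, at 1.23 reads. It was 0.974 and 0.979 reads in WT replicates 1 and 2 and 1.06 in Il2ramut/mut replicate 2, so raw reads are not on 1 scale across libraries. Because the lists differed in length, the percentile of a peak's -log10 p among the peaks of its own library is given beside the reads. The start sites of the Treg cell markers Foxp3, Il2ra, Ctla4, Ikzf2, Tnfrsf18 and Tnfrsf4 lay in a called peak in all 4 libraries, as did those of 5 of 6 T cell markers, and those of 0 of 5 B cell, 0 of 5 myeloid and 0 of 3 NK cell markers did so in any library. Of the 2 CD8 T cell markers, Cd8b1 had a peak over its start in all 4 libraries (mean percentile 77.9) and Cd8a had none.

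The sequences of the regions on which the results turn were read from the GRCm38.p6 reference genome of RefSeq, on the plus strand unless stated. Each is a window of 300 bases centred on the mean of the summits in the libraries. The first is the strongest region outside promoters at Il2rb (chr15:78475613-78475912, 19.5 kb downstream of the start and 3.49 kb past the gene end), with a STAT word (TTCNNNGAA) in capitals. The second is the strongest region outside promoters at both Il4ra and Il21r (chr7:125588739-125589038), the third lies just past the end of Il4ra (chr7:125579860-125580159), and the fourth lies 2.02 kb past the end of Il21r (chr7:125635441-125635740), with a RUNX word (TGTGGTT) in capitals. The fifth is the strongest region outside promoters at Il7r (chr15:9533377-9533676).
Il2rb, 19.5 kb downstream: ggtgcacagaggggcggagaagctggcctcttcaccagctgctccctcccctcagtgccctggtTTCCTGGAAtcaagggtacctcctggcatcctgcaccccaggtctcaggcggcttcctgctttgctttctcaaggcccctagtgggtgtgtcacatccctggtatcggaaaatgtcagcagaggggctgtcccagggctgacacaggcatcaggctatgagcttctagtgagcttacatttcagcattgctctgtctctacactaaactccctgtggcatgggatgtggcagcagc
Il21r, 14.5 kb upstream: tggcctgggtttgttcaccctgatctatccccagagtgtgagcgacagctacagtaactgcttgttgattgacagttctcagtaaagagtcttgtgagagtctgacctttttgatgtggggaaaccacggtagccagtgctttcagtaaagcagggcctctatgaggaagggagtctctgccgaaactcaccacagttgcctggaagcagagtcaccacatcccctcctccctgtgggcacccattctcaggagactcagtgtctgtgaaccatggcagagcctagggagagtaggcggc
Il4ra, 27.9 kb downstream: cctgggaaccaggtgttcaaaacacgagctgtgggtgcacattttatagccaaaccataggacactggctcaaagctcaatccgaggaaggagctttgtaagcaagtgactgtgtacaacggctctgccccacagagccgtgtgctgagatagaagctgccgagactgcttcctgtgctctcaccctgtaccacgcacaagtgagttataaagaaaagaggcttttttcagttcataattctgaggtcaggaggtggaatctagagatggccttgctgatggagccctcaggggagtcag
Il21r, 32.2 kb downstream: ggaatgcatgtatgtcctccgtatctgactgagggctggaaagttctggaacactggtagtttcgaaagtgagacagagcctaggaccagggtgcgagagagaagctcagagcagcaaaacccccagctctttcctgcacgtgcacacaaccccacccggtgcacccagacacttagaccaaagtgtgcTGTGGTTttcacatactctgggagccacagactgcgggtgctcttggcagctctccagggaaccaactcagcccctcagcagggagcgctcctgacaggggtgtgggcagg
Il7r, 3.35 kb upstream: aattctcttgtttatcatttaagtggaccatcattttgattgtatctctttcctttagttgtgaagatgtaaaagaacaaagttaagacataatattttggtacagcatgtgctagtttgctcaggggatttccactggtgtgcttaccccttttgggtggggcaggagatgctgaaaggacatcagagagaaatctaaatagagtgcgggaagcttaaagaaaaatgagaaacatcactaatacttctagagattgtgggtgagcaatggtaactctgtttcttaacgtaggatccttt

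All 6 receptor genes had a region over the start site in all 4 libraries, but the genes differed widely in how many regions surrounded it. Il4ra had 22 regions (12 in all 4 libraries), Il21r 23 (11) and Il2rb 18 (8), against 6 (3) at Il2rg, 6 (4) at Il7r and 4 (1) at Il15ra. Per 100 kb of window this came to 17.8 regions called in all 4 libraries at Il4ra, 15.7 at Il21r and 14.3 at Il2rb, and to 6.84 at Il2rg, 6.21 at Il7r and 1.45 at Il15ra. The median over 21938 protein-coding genes was 2.16, and 99.3%, 98.7% and 98.2% of genes had a density at or below that of Il4ra, Il21r and Il2rb. At Il15ra the share was 38.3%. Il2ra, the alpha chain that is mutated in these mice, had 28 regions (12 in all 4 libraries), a density of 13.3. The window of Il2ra reaches past the start of Il15ra, and its 28 regions include the 4 of Il15ra.

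**Figure D1:**
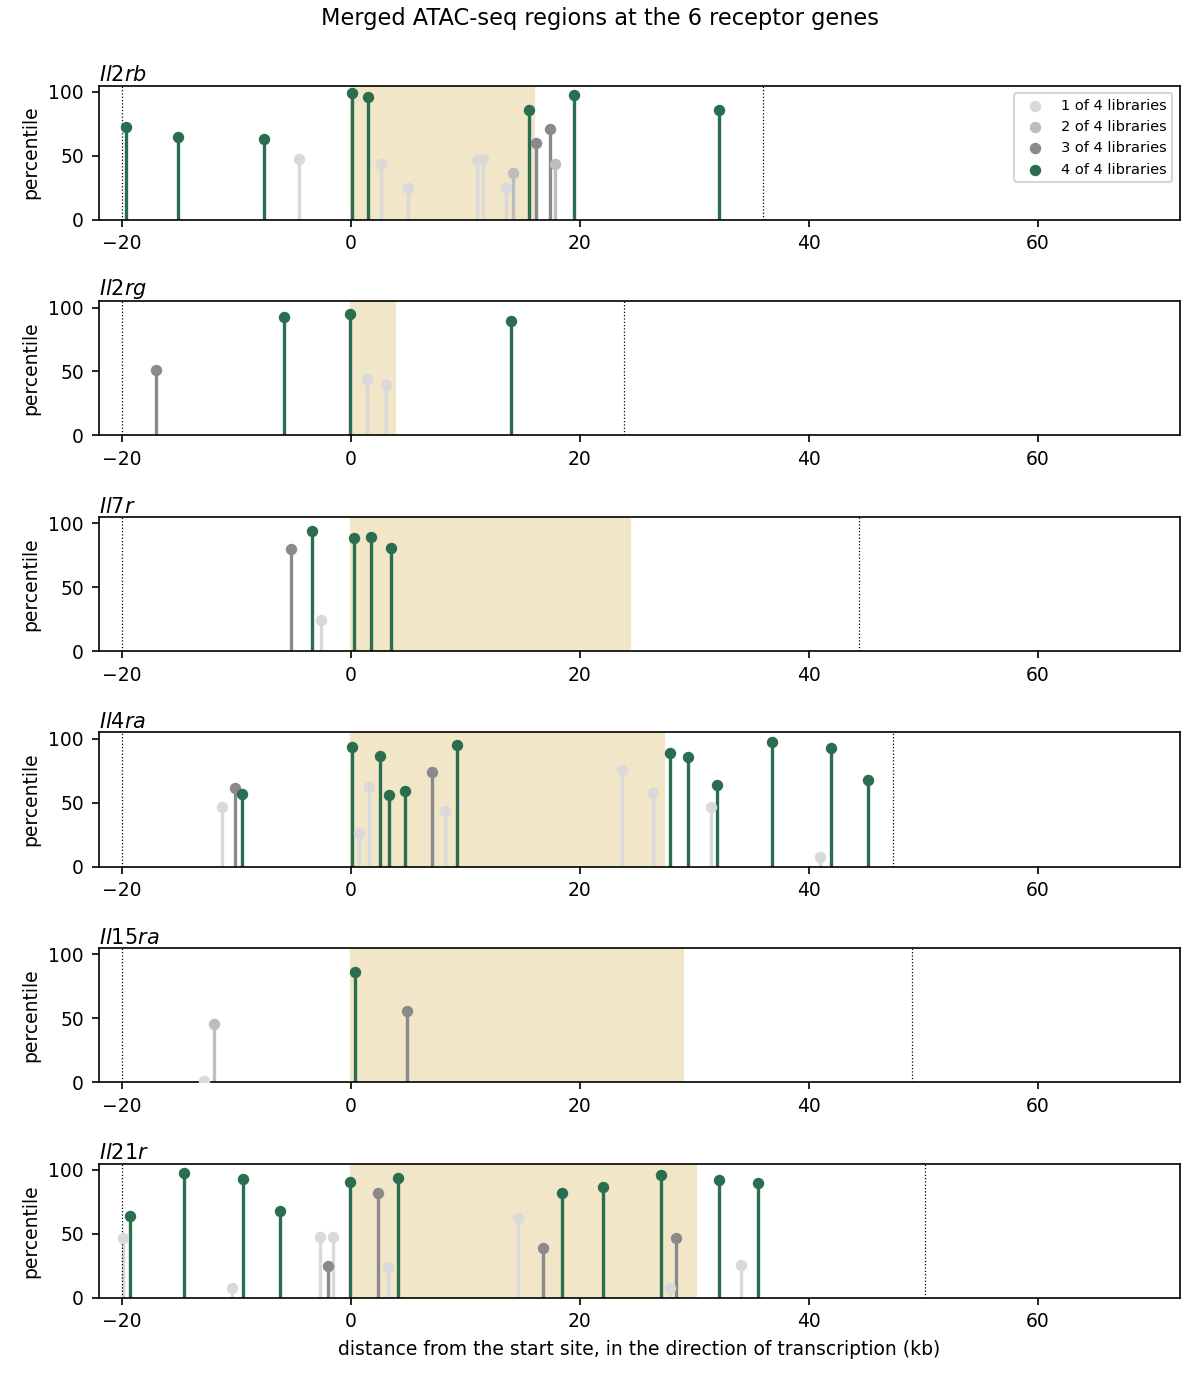
Each stem is a merged region, placed by its distance from the start site of the gene in kb (x axis) with its mean percentile of -log10 p over the libraries in which it was called (y axis). Shading marks the gene body, dotted lines the ends of the window, and colour the number of libraries; 12, 11 and 8 regions were called in all 4 libraries at Il4ra, Il21r and Il2rb, and 1 at Il15ra.

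Of the 73 regions, 47.9% were called in all 4 libraries, against 14.1% of all merged regions. The 24 regions called in a single library had a median percentile of 43.9, the 11 called in 3 libraries had a median of 60.0, and the 35 called in all 4 had a median of 88.5, beside 26.6, 47.9 and 82.8 for all such regions of the genome. Il2ramut/mut replicate 1 lacked 6 and WT replicate 1 lacked 4 of the 11 regions that were called in exactly 3 libraries, whereas WT replicate 2 lacked 0. Among all regions called in exactly 3 libraries, the library that lacked the peak was most often WT replicate 1 (34.1%). Of the 35 regions, 9 lay in a promoter (within 1 kb of any annotated start), 1 in an exon, 11 in an intron and 14 outside genes, which is 25.7%, 2.86%, 31.4% and 40.0%, beside 31.7%, 3.14%, 35.7% and 29.4% of all regions called in all 4 libraries. Several lay in or nearest to neighbouring genes. At Il2rb, the region 32.1 kb downstream was in an intron of Tmprss6, whose start was also the nearest to the strong region 19.5 kb downstream. At Il2rg, the region 14.0 kb downstream was the promoter of Foxo4 and the region 5.80 kb upstream that of Med12, and the remaining region called in all 4 libraries, over the Il2rg start, also lay inside the annotated gene Gm20489. At Il15ra, the upstream flank reached the 3′ end of Il2ra.

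At the start sites, Il2rb stood highest. The region over its start held 113 and 148 summit reads in WT replicates 1 and 2 and 131 and 126 in Il2ramut/mut replicates 1 and 2. These were fold enrichments of 57.7, 75.3, 59.2 and 61.7, with -log10 p of 188.1, 262.4, 212.7 and 210.8. Every library thus placed it between the percentiles 99.2 and 99.4. Il2rg came next with 37, 53, 60 and 51 reads in the same order of libraries, and its percentiles of 93.8, 94.4, 95.8 and 95.8 were higher in both mutant libraries than in both WT libraries. Il4ra held 29, 50, 44 and 54 reads and percentiles of 91.5, 93.9, 93.5 and 96.1. Il21r held 27, 34, 20 and 38 reads and percentiles of 90.8, 90.5, 85.6 and 93.8, so that its mutant libraries lay on either side of the WT libraries.

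The remaining start sites were the lowest of the 6. Il7r held 19, 35, 20 and 23 reads (percentiles 86.7, 90.8, 85.6 and 89.7), and the genotypes overlapped. Il15ra, whose product presents IL-15, held 14, 23, 22 and 26 reads (percentiles 81.9, 86.3, 86.8 and 90.9), with both mutant libraries above both WT libraries by a small margin. In mean percentile the order was Il2rb (99.3), Il2rg (94.9), Il4ra (93.8), Il21r (90.2), Il7r (88.2) and Il15ra (86.5), and the median of the 10008 protein-coding genes with such a region in all 4 libraries was 94.5. The range of libraries at Il2rb did not overlap that of any other member. Each of the other neighbours in this order had overlapping ranges, from Il2rg and Il4ra to Il7r and Il15ra. Peak heights over different regions also depend on the DNA under them, so this order is one of ATAC-seq signal and not of expression.

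**Figure D2:**
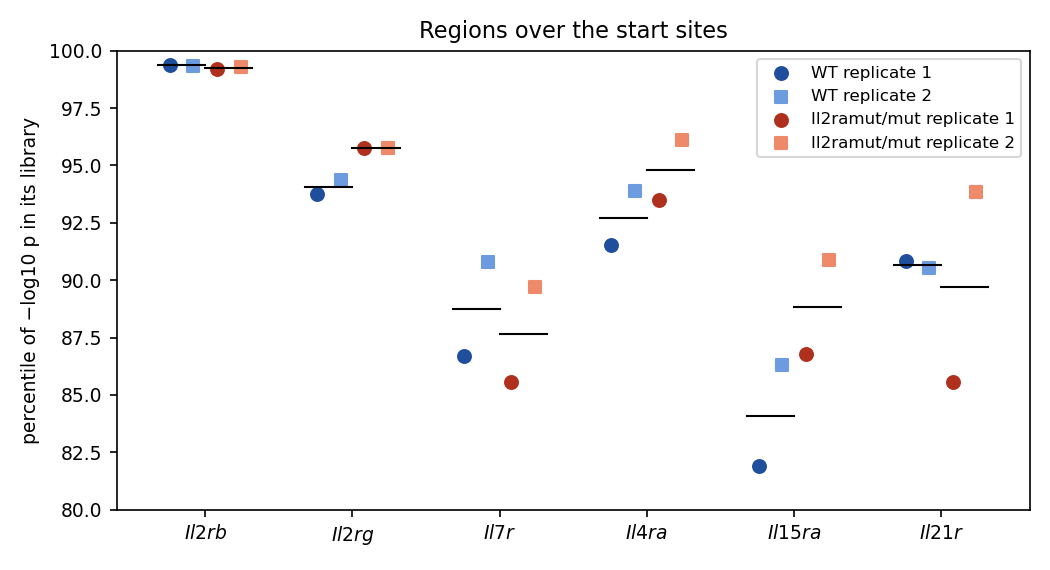
Points give, for each library, the percentile of -log10 p (y axis, from 80 to 100) of the region over the start site of each gene (x axis), and short lines the mean of each genotype. All libraries lie between 99.2 and 99.4 at Il2rb, both mutant libraries lie above both WT libraries at Il2rg and Il15ra, and the genotypes overlap at Il7r, Il4ra and Il21r.

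The strongest signals away from the start sites were at Il2rb and between Il4ra and Il21r. At Il2rb the region 19.5 kb downstream held 70 and 114 reads in WT and 77 and 64 in Il2ramut/mut, with fold enrichments from 31.6 to 58.1 and percentiles between 97.0 and 98.6. The region 14.5 kb upstream of Il21r, which is also 9.41 kb past the end of Il4ra, held 69 and 97 reads in WT and 79 and 82 in the mutant, with fold enrichments of 35.5, 49.5, 35.9 and 40.3 and percentiles between 97.3 and 98.1. Its summits fell within 36 bp of each other in the 4 libraries. At Il7r the strongest such region, 3.35 kb upstream, held 30, 60, 46 and 47 reads and stood above the start site of its gene in all 4 libraries. At Il15ra the strongest was in intron 1, 4.95 kb downstream, with 10, 9 and 9 reads in WT replicate 2 and both mutant libraries and no peak in WT replicate 1. At Il2rg it lay in Med12 with 8, 9 and 8 reads, and Il2ramut/mut replicate 1 had no peak there.

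Further regions of Il4ra, Il21r and Il2rb, chosen after their values were seen, were also called in all 4 libraries. In intron 1 of Il4ra, a region 9.31 kb downstream of the start held 41, 66, 41 and 55 reads (mean percentile 94.9, above the 93.8 of the start site). Il21r, whose receptor binds a cytokine of follicular helper T cells, had a region in intron 1, 4.15 kb downstream, with 28, 46, 42 and 60 reads and another in intron 7, 27.1 kb downstream, with 39, 71, 74 and 51 reads. Both exceeded the mean percentile of the Il21r start (93.5 and 95.8 against 90.2). At Il2rb, a region 1.51 kb inside the gene counted as a promoter, since it lay within 1 kb of another annotated Il2rb start. This region held 31 and 71 reads in WT and 73 and 64 in the mutant, fewer than the Il2rb start in each library. Its WT libraries differed from each other by more than the mutant libraries did.

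The genotypes were first compared by percentile, which also moves with the length of a library's peak list. Of the 35 regions called in all 4 libraries, 7 had higher percentiles in both Il2ramut/mut libraries than in both WT libraries, 7 had lower ones and 21 overlapped. The same was true of 26.2% (higher) and 12.6% (lower) of all 38426 such regions. With equal numbers of top peaks per library, 8 of 34 regions were higher and 10 lower, beside 19.9% and 20.2% of all regions. An exact permutation test of 2 libraries against 2 has 6 assignments, and its smallest two-sided p is 2 of 6 at any region. The 7 higher regions included all 3 at Il2rg (2 of them the promoters of Foxo4 and Med12), the start of Il15ra and 2 regions at Il2rb, and the 7 lower ones included the start of Il2rb, where the 4 percentiles spanned less than 1 unit.

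Fold enrichments were then compared by limma on the quantile-normalised log2 scale, over all 38426 regions, and no region at these genes passed. In this fit 0 of 35 regions had a Benjamini-Hochberg adjusted p of at most 0.05, as did 0% of all regions in either direction (higher 0%, lower 0%). The lowest adjusted p was 0.582 both among the 35 and among all regions. At an unadjusted p of at most 0.05, 0 of the 35 regions were higher and 3 were lower (8.57%), beside 4.18% (higher) and 4.37% (lower) of all regions, and 1 of the 35 was lower without WT replicate 1, WT replicate 2 or Il2ramut/mut replicate 2. The median log2 difference of the 35 regions was -0.02 (0.00 over all regions), with 16 positive and 19 negative values. The median size of the difference was 0.23, beside a median gap of 0.21 between the WT libraries and 0.31 between the mutant libraries. Over all regions these were 0.20, 0.24 and 0.24, and a gap between single libraries is larger by construction than a difference between means. In 26 of the 35 regions the 95% interval, which is not adjusted for the number of regions, lay within 1 log2 unit on either side of 0. Over the genome, median scaling called 142 regions higher and 176 lower, normal scores 13 and 22, no scaling 3 and 11, and a -log10 q of at least 3 called 2 and 2, and none of these settings called any of the 35.

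**Figure D3:**
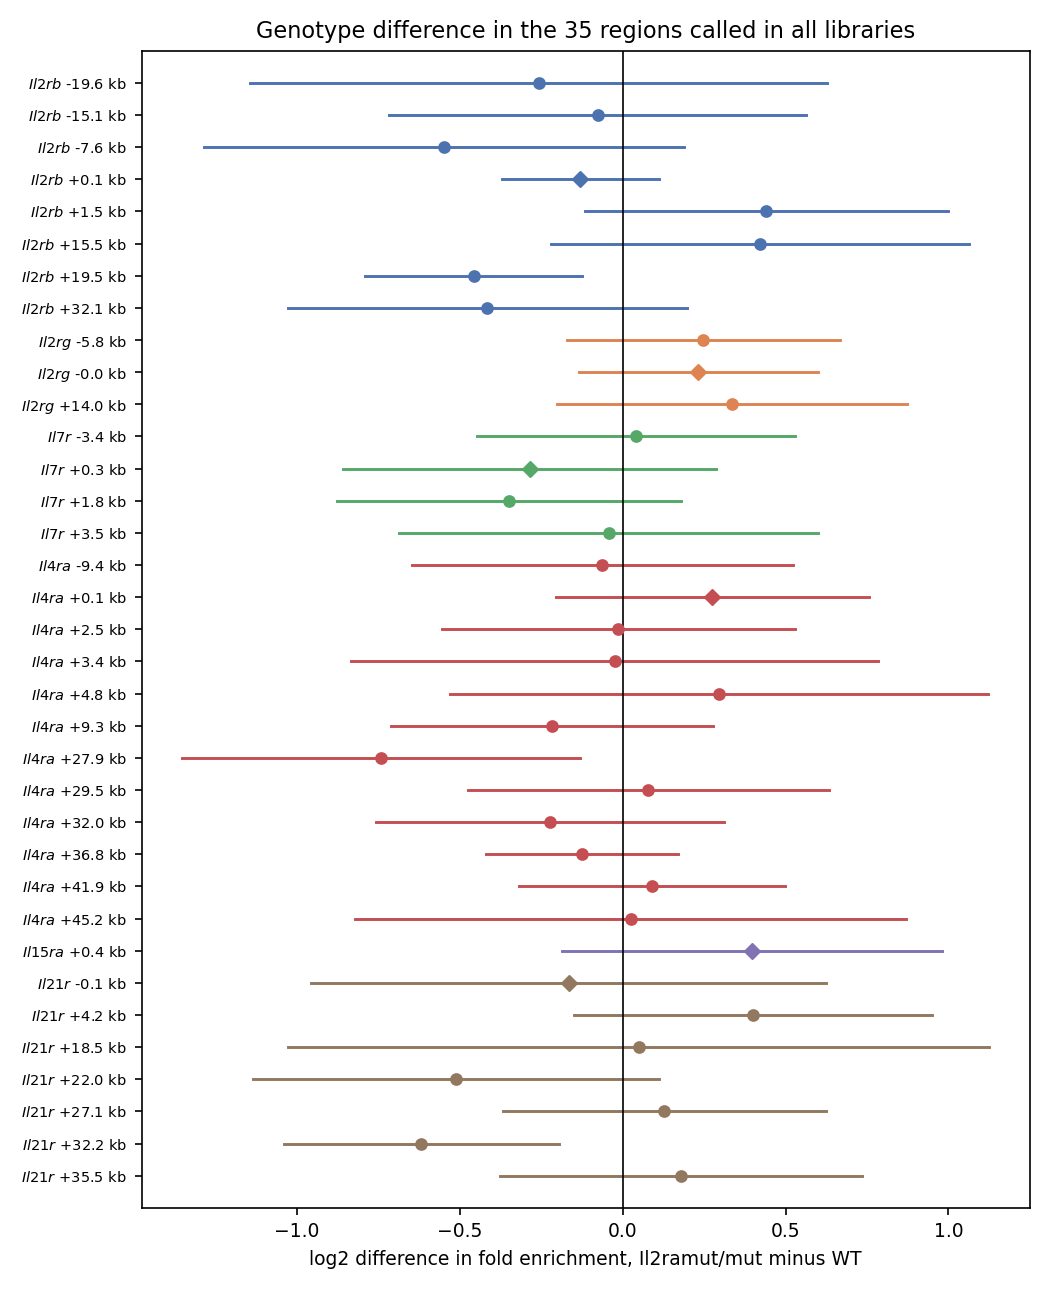
Points give the log2 difference in quantile-normalised fold enrichment, Il2ramut/mut minus WT (x axis), of each of the 35 regions called in all libraries, labelled by gene and distance from the start site in kb, and bars the unadjusted 95% interval from limma; diamonds mark start sites. The intervals of 3 regions, at Il2rb, Il4ra and Il21r, lie below 0, and the remaining 32 include 0.

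The 3 regions that were lower at an unadjusted p of at most 0.05 all lay past the 3′ ends of their genes, a position that other regions shared. The next fitted region past each of these ends had a log2 difference of -0.42 at Il2rb, 0.08 at Il4ra and 0.18 at Il21r, with intervals that included 0. At the region 2.02 kb past the end of Il21r, WT libraries held 38 and 51 reads and mutant libraries 32 and 27, and the log2 difference was -0.62 (95% interval -1.04 to -0.20, limma adjusted p = 0.582). At the region 3.49 kb past the end of Il2rb, for which the reads are given above, it was -0.46 (-0.79 to -0.12, limma adjusted p = 0.582). At the region 0.54 kb past the end of Il4ra, WT libraries held 30 and 33 reads and mutant libraries 17 and 21, and the difference was -0.74 (-1.35 to -0.13, limma adjusted p = 0.582). The genotypes did not overlap in these 3 regions on the normalised scale, but the regions were picked by p on these same values, so this is no separate support. In summit reads the genotypes overlapped at the Il2rb region.

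In the remaining 32 regions the interval included 0. Counting all 35, the difference exceeded both the gap between the WT libraries and that between the mutant libraries in 11 regions, beside 10213 of all 38426. At the start sites the log2 differences were -0.13 at Il2rb (95% interval -0.37 to 0.11), 0.23 at Il2rg (-0.13 to 0.60), -0.29 at Il7r (-0.86 to 0.29), 0.28 at Il4ra (-0.20 to 0.75), 0.40 at Il15ra (-0.19 to 0.98) and -0.17 at Il21r (-0.96 to 0.63). None of these intervals reached a 2-fold change. The Il15ra start was the single region of its gene that could be fitted. At Il2rg the largest was 0.34 (-0.20 to 0.87), over the promoter of Foxo4. At Il7r it was -0.35 (-0.88 to 0.18), in intron 1, 1.82 kb from the start, where the libraries held 22, 34, 25 and 19 reads. At Il2rb it was -0.55 (-1.28 to 0.19), 7.58 kb upstream, where the reads were 14, 12, 8 and 11. Summits of the libraries lay up to 312 bp apart in this Il2rb region and up to 436 bp apart at the Foxo4 promoter. With summits within 150 bp joined, neither region could be refitted. The strong region between Il4ra and Il21r differed by -0.13 (-0.42 to 0.17), and that upstream of Il7r by 0.04 (-0.45 to 0.53). Leaving out a library changed the sign at the Il21r start (0.30 without Il2ramut/mut replicate 1) and upstream of Il7r (-0.19 without WT replicate 1 and -0.01 without Il2ramut/mut replicate 2).

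**Figure D4:**
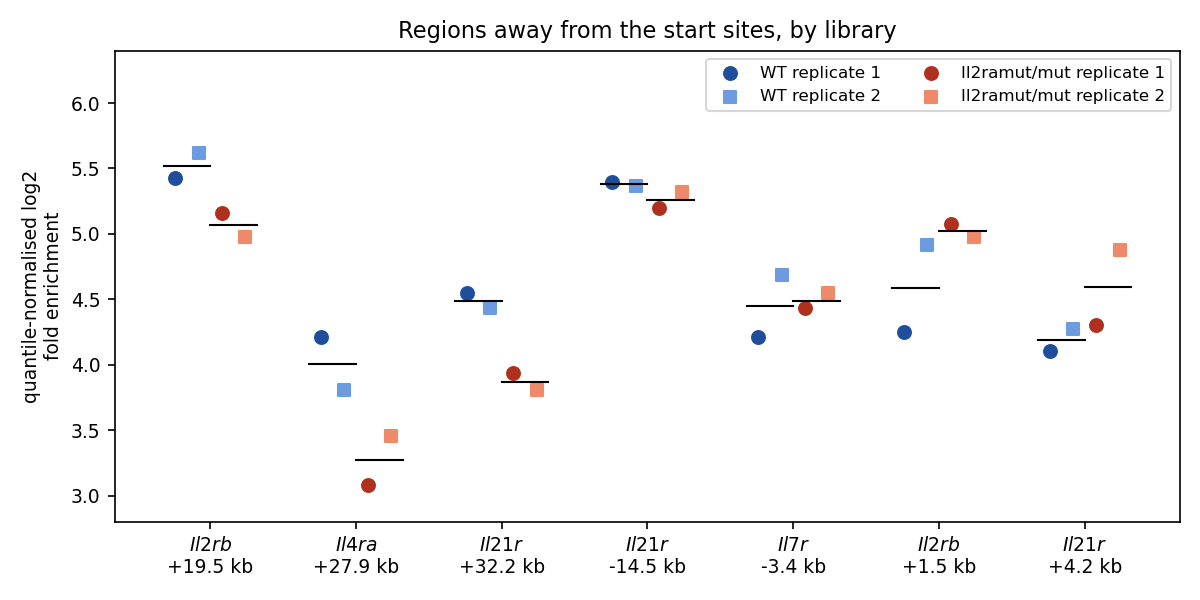
Points give the quantile-normalised log2 fold enrichment (y axis) of each library at 7 regions that do not cover the start site of their gene, and lines the mean of each genotype. Regions are labelled by gene and distance in kb, and the Il2rb region at 1.51 kb lies within 1 kb of another annotated Il2rb start. The mutant libraries lie below both WT libraries at the first 4 regions, with differences of -0.46, -0.74, -0.62 and -0.13, overlap them at the region 3.35 kb upstream of Il7r and lie above them at the last 2.

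By presence alone, 0 of the 73 regions were called in both WT libraries and neither mutant library, and 0 in both mutant libraries and neither WT library. Over the genome these shares were 2.7% and 3.56%. Reproducible open chromatin regions (OCRs) were then taken as those whose irreproducible discovery rate (IDR), computed within each genotype, did not exceed 0.05. Of these, 26 OCRs at the receptor genes were common to both genotypes, 1 was unique to WT and 1 to Il2ramut/mut. Of all OCRs of either genotype, 14.4% were unique to WT and 13.7% to Il2ramut/mut. The WT-unique OCR lay 19.6 kb upstream of Il2rb, nearest to the start of C1qtnf6 (chr15:78514579-78515046), and had an IDR of 0.00941 in WT and 0.516 in the mutant. It was nevertheless called in all 4 libraries, with 13 and 15 reads in WT and 18 and 8 in the mutant. The Il2ramut/mut-unique OCR lay in intron 1 of Il21r, 2.41 kb downstream of the start (chr7:125605638-125606085), and held 18 and 11 reads in the mutant. WT replicate 2 held a peak of 20 reads there and WT replicate 1 none, and its IDR of 0.0489 was so close to the threshold that another random order of tied peaks removed it. All 6 start sites were common OCRs.

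Sequence words of 5 factor families were counted in windows of 300 bases at the 35 regions, on both strands. Windows were centred on the mean summit. Summits spread over 312 bp at the region 7.58 kb upstream of Il2rb and over 436 bp at the Foxo4 promoter. There a window of 300 bases does not reach every summit. The STAT word TTCNNNGAA was found in 6 windows (17.1%), beside 8.71% of the 38273 windows of the same length over the genome. The corresponding values were 5 windows (14.3%) beside 10.6% for the AP-1 word TGANTCA, 4 (11.4%) beside 10.1% for the RUNX word TGTGGTT, 2 (5.71%) beside 3.93% for the forkhead word TGTTTAC and 0 beside 6.26% for the ETS word CGGAAGT. The counts are small and the windows are no independent sample, so these shares were not tested. The 6 STAT words are shown because IL-2 signals through STAT5, with the word in capitals: at Il2rb 19.5 kb downstream (chr15:78475657-78475705) and 7.58 kb upstream (chr15:78502933-78502981), in intron 1 of Il4ra (chr7:125554601-125554649 and chr7:125561451-125561499), 2.12 kb past the end of Il4ra (chr7:125581591-125581639) and 9.38 kb upstream of Il21r (chr7:125594098-125594146).
Il2rb, 19.5 kb downstream: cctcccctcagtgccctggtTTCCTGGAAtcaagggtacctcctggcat
Il2rb, 7.58 kb upstream: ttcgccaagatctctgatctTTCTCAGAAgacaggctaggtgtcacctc
Il4ra, 2.53 kb downstream: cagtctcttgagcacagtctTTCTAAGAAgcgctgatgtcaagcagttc
Il4ra, 9.31 kb downstream: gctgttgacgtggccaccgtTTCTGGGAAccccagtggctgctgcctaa
Il4ra, 29.5 kb downstream: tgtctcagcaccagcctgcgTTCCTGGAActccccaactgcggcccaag
Il21r, 9.38 kb upstream: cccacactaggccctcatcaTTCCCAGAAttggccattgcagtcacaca

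None of the 6 start site windows held a STAT word. Among the windows with the word, the log2 differences between the genotypes were -0.46 and -0.55 at Il2rb, -0.01, -0.22 and 0.08 at Il4ra and 0.09 upstream of Il21r, and the adjusted p values ranged from 0.582 to 0.994. The region upstream of Il21r held 30 and 41 reads in WT and 40 and 38 in the mutant. Neither of the strong regions upstream of Il7r and between Il4ra and Il21r held any of the 5 words.

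Among 19 other genes of the pathway (receptor chains such as Il2ra and Il9r, the kinases Jak1, Jak3 and Tyk2, the STAT genes and inhibitors of the signal such as Cish and Socs1), 16 had a region over the annotated start in all 4 libraries, and Il13ra1, Stat4 and Stat5a had none at their outermost start. Their windows held 239 regions, 124 of them in all 4 libraries. The window of Il2ra holds all 4 regions of Il15ra, its start included, so these are counted here too. Of the 124, 0 passed the limma fit (7 were higher and 7 lower at an unadjusted p of at most 0.05, 5.65% each way). Percentiles did not overlap between genotypes in 37 regions that were higher in the mutant (29.8%) and 24 that were lower (19.4%). Over all regions called in all 4 libraries these shares were 26.2% and 12.6%. At an unadjusted p of at most 0.05, 4.18% of all regions were higher and 4.37% lower. The start sites closest to those of 5 of the receptor genes in percentile, by the mean absolute difference over the 4 libraries, were Stat3 for Il2rb (0.29), Cish for Il4ra (1.11), Jak3 for Il21r (1.36), Il9r for Il15ra (1.06) and Stat5b for Il7r (3.26).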

How the data were processed

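ATAC-seq peak lists of 4 libraries of LN Treg cells (2 WT, 2 Il2ramut/mut, 50000 cells each) were analysed. Per the submitters' processing notes and the study's methods, reads were trimmed with Trim Galore (0.3.7) and aligned to mm10 with BWA mem (0.7.13), duplicates and mitochondrial reads were removed with SAMtools (0.1.19) and Picard (1.92), reads were shifted for the transposase, and MACS2 (2.1.0) called narrow peaks in each library separately. Each deposited list gives the authors' fold enrichment over background at the summit (a ratio with 1 read added to both sides), -log10 p-value, -log10 q-value, a score that the authors' caller derives from the q-value, and the summit offset. Lists hold no library totals, so precision rests on the spread between libraries, which may be technical.

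Peaks overlapping by 1 bp were merged, the strongest peak of a library standing for a region. Log2 fold enrichments of regions called in all 4 libraries were quantile-normalised and compared with limma (3.58.1, R 4.3.3; mean trend, Benjamini-Hochberg adjustment over 38426 regions, no replicate block). IDR was computed in Python (3.11.15) on ranks of -log10 p with ties broken from a fixed seed. Fit, IDR and word search were tested on simulated data. Percentiles use the mean rank for ties. Sequence was read from GRCm38.p6 (RefSeq), in which no peak ran past the end of its chromosome (21 of 21 checked). Figures were drawn with matplotlib (3.10.9). At each gene the regions named are the one over the start, the strongest outside promoters, any that passed a test or was unique to a genotype, and the one with the largest difference; others are said to be chosen later. The genes, lists and tests were chosen with earlier results of these data known. Alternatives varied the merging, filters, flanks, scaling, IDR settings and libraries. Thymic Treg cells were not analysed here, and the pathway gene closest to Il2rg is not reported here.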

Additional observations from a re-analysis of the deposited data

How the results depend on the processing

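The absence of regions that passed limma held in each of the 13 alternatives run (no or median scaling, normal scores, -log10 p as the value, regions in at least 3 libraries, -log10 q of at least 3, no trend, the replicate block, summits within 150 bp, and each library left out). The lowest adjusted p at the receptor genes was 0.17, with median scaling. At these regions -log10 p and fold enrichment ranked alike within each library. The run on -log10 p was thus close to the main fit and is no separate check (lowest limma adjusted p 0.583 beside 0.582). Regions lower at an unadjusted p of at most 0.05 numbered 3 in the main fit, 1 with no scaling and 2 with no trend. They numbered 3 in the other alternatives that kept all 4 libraries. At the same p, 0 were higher in the main fit. With median scaling, normal scores or a -log10 q of at least 3, 1 was higher. Same-numbered libraries showed no shared deviation (their correlation was 0.0109 over all regions), which cannot show whether they were prepared together. With the replicate block 0 regions at the receptor genes had an adjusted p of at most 0.05. At an unadjusted p of at most 0.05, 0 were higher and 3 lower with the block. Of 180 recomputed differences at 14 named regions, 3 changed sign, all with a library left out. The 180 leave out the region 7.58 kb upstream of Il2rb and the Foxo4 promoter with summits joined, where neither could be refitted. The difference 3.35 kb upstream of Il7r ranged from -0.19 (without WT replicate 1) to 0.28 and was -0.01 without Il2ramut/mut replicate 2. That at the Il21r start ranged from -0.64 to 0.30 (without Il2ramut/mut replicate 1). The causes were not tested.

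With the gene bodies alone, 18 regions were called in all libraries. A region was called in WT only once with equal numbers of peaks or with summits joined, and in Il2ramut/mut only once with summits joined or a flank of 50 kb. The Il2ramut/mut-unique OCR was lost (0) at an IDR of 0.01, with another order of ties and with equal numbers of peaks, and without the IDR step 7 OCRs were unique to WT and 5 to Il2ramut/mut (over the genome 17872 and 21994, beside 36833 common). Leaving out a library gave 1 to 11 regions in WT only and 1 to 7 in Il2ramut/mut only, since 1 library then stands for a genotype. The shares of all regions called in 1 genotype only were not computed for these settings, so these counts cannot be set against the genome. By percentile, 9 to 18 regions were then higher and 10 to 14 lower in the mutant. Of all regions, 35.8% to 49.0% were then higher and 22.1% to 33.5% lower. Total depth is unknown, so regions of few reads, such as those at Il15ra, limit what could be seen.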
